A study of Mus musculus with 35 samples.

Results

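The chromatin around Adora2a on mouse chromosome 10 was followed at 33 accessible regions (peaks) out of the 76018 of the deposited ATAC-seq table, of which 4472 lie on that chromosome. They are all the peaks whose midpoint falls between 74640000 and 74960000 (build mm9), a window of 320 kb in which Adora2a takes up about 74780000 to 74798000. The window was chosen by measured values, since it was set around chr10:74826194-74828242, a peak selected because it changed in many of the study's comparisons. That peak is called the dynamic peak here, and its values are given as a description with no test. The other 32 peaks entered by position alone. Each is named by the distance of its midpoint from that of the dynamic peak, with a plus sign toward higher coordinates.

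Adora2a encodes an adenosine receptor that couples to a stimulatory G protein and raises cyclic AMP when it binds extracellular adenosine. The receptor is present on vascular endothelium, where adenosine signalling affects tone and barrier function, and on leukocytes, where it restrains inflammatory responses. Peaks away from a gene's start often mark enhancers, which can act on the nearest gene or on others. RefSeq places Bcr and Specc1l before Adora2a, and Upb1 and Gucd1 after it, in the order of protein-coding genes of a later mouse build. No peak was assigned to any of these genes.

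The study sampled the change of endothelium into blood in the mouse embryo, in 35 libraries of 9 populations from 23GFP transgenic mice. In this line an enhancer of Runx1, known from other work, drives GFP, and every population carried the transgene. Each of the 3 embryonic days gave 4 libraries of endothelial cells (EC) and 4 of hemogenic endothelium (HE), the endothelium from which blood arises. The days were E8.5, E9.5, and last E10.5. The blood populations were pro-HSC/HPC at E9.5 (3 libraries), pre-HSC I at E10.5 (4 libraries) and pre-HSC II at E10.5 (4 libraries), HSC being the hematopoietic stem cell and HPC the hematopoietic progenitor cell. Tissue was labelled PAS+VU at E8.5 and AGM+VU at E10.5. The E9.5 samples carry the E8.5 tissue label, so their day was taken from the title. Each library came from a pool of 1500 sorted cells, and the sources used here do not say which embryos or litters made up a pool. The p-values therefore measure no more than the spread from pool to pool.

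Library totals ran from 456770 to 7415315 counts in peaks. In the shallowest, a pre-HSC II library, 3 counts stand for 6.57 CPM (counts scaled to the library total), and in the deepest for 0.405. All pre-HSC II libraries held at most 1241216 counts. Libraries 2 and 3 of pre-HSC I differed by less than sampling noise. Their chi-square per degree of freedom was 0.466, against 2.684 to 8.928 in the 50 other pairs within groups. They were therefore not taken as independent and entered as 1 sample, and 34 samples remained. E10.5 HE libraries 1 and 4 stood apart in this window: their counts summed over the 33 peaks came to 409 and 393 CPM, against 633 and 795 in libraries 2 and 3. These HE libraries were also the shallowest of their group (1215458 and 1101787 counts). In E10.5 EC the libraries of the same numbers were lower as well, at 489 and 637 CPM against 833 and 953 in libraries 2 and 3. Cell type markers were not checked, because no annotation of the files' build was used here. Fewer open cells and less open chromatin per cell cannot be told apart in such pools.

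Of the 33 peaks, 10 lay before the gene, 1 overlapped its start, 5 lay inside it and 17 lay after it. Peak width had a median of 578.0 bp (106 to 2048 bp), against 496.0 bp over the whole table. The dynamic peak was the widest of the 33 at 2048 bp, wider than 97.3% of all peaks, and began 28.2 kb beyond the end of Adora2a. In the count filter 30 peaks passed, and the peaks at −179.9, −70.3 and +70.1 kb did not. Mean accessibility per length was highest at −152.4 kb (58.2 CPM per kb), and in single populations the highest value was that of the +82.1 kb peak in E9.5 EC (108 CPM per kb).

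**Figure D1:**
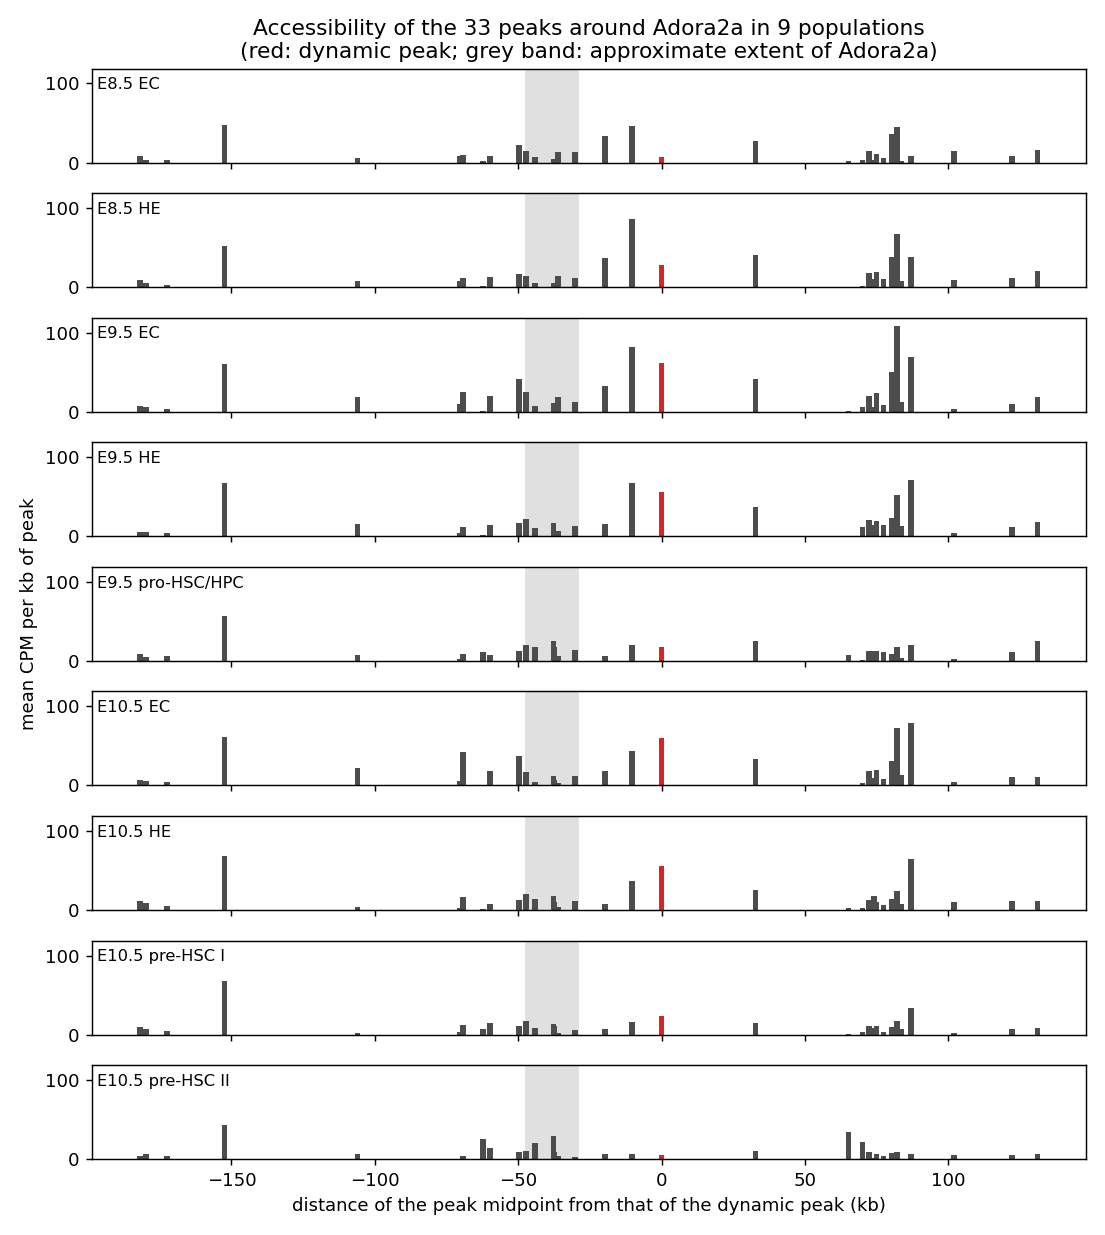
Mean CPM per kb of peak (vertical axis) of the 33 peaks against the distance of each peak's midpoint from that of the dynamic peak in kb (horizontal axis), 1 panel per population. Red marks the dynamic peak, which goes from 6.98 CPM per kb in E8.5 EC to 61.8 in E9.5 EC and 4.75 in pre-HSC II, and the grey band marks the approximate extent of Adora2a.

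The dynamic peak was low in E8.5 EC, high in EC and HE of the later days, intermediate in E8.5 HE and in the first blood populations, and lowest in pre-HSC II. In E8.5 EC its libraries held 13.0, 12.2, 12.9 and 19.1 CPM (14.3 ± 3.25, SD, n = 4). In E8.5 HE they held 48.2, 54.8, 57.1 and 68.4 CPM (57.1 ± 8.40, n = 4). Every E8.5 HE library was thus above every E8.5 EC library, and the groups differed by 1.97 on the log2 scale (3.93-fold).

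From E9.5 on, the endothelial groups overlapped at this peak. E9.5 EC gave 144, 103, 127 and 132 CPM (127 ± 17.0, n = 4) and E9.5 HE gave 122, 121, 98.7 and 121 CPM (116 ± 11.3, n = 4). E10.5 EC gave 90.9, 138, 162 and 102 CPM (123 ± 32.5, n = 4) and E10.5 HE gave 102, 112, 161 and 76.6 CPM (113 ± 35.4, n = 4). Within each day the ranges of EC and HE overlapped. All 4 E9.5 EC libraries were far above those of E8.5 EC, with a log2 difference of 3.11 (8.65-fold), and HE differed by 1.01 between the same days. HE against EC differed by −0.13 at E9.5 and −0.12 at E10.5 on the log2 scale.

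The blood populations lay below the endothelium of their day. Pro-HSC/HPC held 37.8, 31.4 and 39.3 CPM (36.2 ± 4.20, n = 3), all under the lowest E9.5 HE library, with a log2 difference of −1.68. Pre-HSC I held 60.7, 48.2 and 38.1 CPM (49.0 ± 11.3, n = 3, the second value being the merged pair), and pre-HSC II held 13.9, 3.76, 7.17 and 14.1 CPM (9.73 ± 5.12, n = 4). Both E10.5 blood groups were below all E10.5 HE libraries, and pre-HSC II did not overlap pre-HSC I.

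Pre-HSC II differed from pre-HSC I by −2.30 on the log2 scale and from E10.5 EC by −3.63 (12.4-fold lower). Over the alternative fits described in the last section these ran from −2.35 to −1.81 and from −3.78 to −2.83. The difference of pro-HSC/HPC from E9.5 HE ran from −1.74 to −1.08. In the order of means, E9.5 EC, E10.5 EC, E9.5 HE and E10.5 HE came first and overlapped. E8.5 HE, pre-HSC I and pro-HSC/HPC followed, with overlap between neighbours, and then E8.5 EC and pre-HSC II, which also overlapped. Among all peaks tested the level of the dynamic peak ranked at the 98.2 percentile in E9.5 EC and at the 68.9 percentile in pre-HSC II. These ranks owe part of their height to its width. Per kb of peak it ranked at the 96.9 percentile in E9.5 EC and at the 19.9 percentile in pre-HSC II. The peak was chosen for changing in many comparisons, so no count of calls is given for it.

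The summed CPM of the other 32 peaks moved less than the dynamic peak. It was 442 ± 91.6 CPM in E8.5 EC, 773 ± 68.0 in E9.5 EC and 228 ± 27.6 in pre-HSC II (SD, n = 4 each). The dynamic peak's share of the window's CPM was therefore not constant: 3.19% ± 0.686 in E8.5 EC, 14.1% ± 1.78 in E9.5 EC, 20.6% ± 3.05 in E10.5 HE, 13.1% ± 1.80 in pre-HSC I (n = 3) and 4.07% ± 2.01 in pre-HSC II.

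The peak at +87.0 kb (chr10:74913761-74914653) had the same shape over the 9 populations. Its libraries held 4.33, 8.71, 7.57 and 9.92 CPM in E8.5 EC (7.64 ± 2.40) and 35.0, 30.0, 33.1 and 37.7 CPM in E8.5 HE (34.0 ± 3.21). In EC of E9.5 the values were 73.1, 70.6, 54.8 and 49.9 CPM (62.1 ± 11.5), and in HE 68.1, 69.3, 39.9 and 74.4 CPM (62.9 ± 15.6). At E8.5 no library of HE overlapped those of EC, while at E9.5 the ranges overlapped.

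In E10.5 EC the +87.0 kb peak held 47.1, 87.5, 86.7 and 59.4 CPM (70.2 ± 20.1), and in E10.5 HE 38.7, 67.4, 93.6 and 29.0 CPM (57.2 ± 29.2). Pro-HSC/HPC held 26.4, 17.5 and 10.8 CPM (18.2 ± 7.83), pre-HSC I 42.6, 24.9 and 24.4 CPM (30.6 ± 10.4), and pre-HSC II 13.9, 2.50, 2.39 and 5.94 CPM (6.18 ± 5.39). Pro-HSC/HPC lay below every E9.5 HE library, pre-HSC I overlapped E10.5 HE, and pre-HSC II lay below every other E10.5 library.

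Peaks were tested with edgeR's quasi-likelihood test and Benjamini-Hochberg adjustment over all 67108 peaks tested. At an adjusted p under 0.05 the +87.0 kb peak was called in 8 of 14 comparisons between populations. As many calls or more were made at 0.301% of the tested peaks. The peak at +82.1 kb was also called in 8, and that at −10.3 kb in 7 (0.761% of tested peaks had as many or more). Those at +87.0 and +82.1 kb were picked for their number of calls, so this share is a description. The +87.0 kb peak was higher in E8.5 HE than in E8.5 EC, by 2.12 on the log2 scale (SE 0.34, adjusted p = 0.000139). In E9.5 EC it was higher than in E8.5 EC, by 2.99 (SE 0.34, 1.59e-08). The HE against EC difference itself changed from E8.5 to E9.5, by −2.10 on the log2 scale (SE 0.44, adjusted p = 0.00663, edgeR). Without the shallower E8.5 libraries 1 and 2 of both groups, the E8.5 difference was 1.97 (adjusted p = 0.106) and its change to E9.5 −1.93 (0.22), so neither was called.

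In the blood groups the same peak was lower in pro-HSC/HPC than in E9.5 HE (log2 −1.73, SE 0.34, edgeR adjusted p = 0.00223). It was also lower in pre-HSC II than in pre-HSC I (log2 −2.41, SE 0.44, 0.000372). With all libraries thinned to the shallowest, neither was called (−1.28, 0.0971, and −1.35, 0.163). The fall to pre-HSC II also missed the threshold in a fit of only these groups with the replicate number as a block (−2.0, 0.055). Pre-HSC II was lower than E10.5 EC (−3.62, SE 0.40, 3.56e-10) and than E10.5 HE (−3.35, SE 0.41, 1.35e-08), about 12.3-fold and 10.2-fold. Without pre-HSC II library 1 these became −4.21 and −3.97. Pre-HSC I was lower than E10.5 EC (−1.21, 0.0148), a call lost without E10.5 EC library 2 or without either of the pre-HSC I samples 2 and 4 (log2 −1.12 to −1.08, adjusted p 0.0532 to 0.101). Against E10.5 HE pre-HSC I differed by −0.94 (SE 0.33), with an adjusted p of 0.327.

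**Figure D2:**
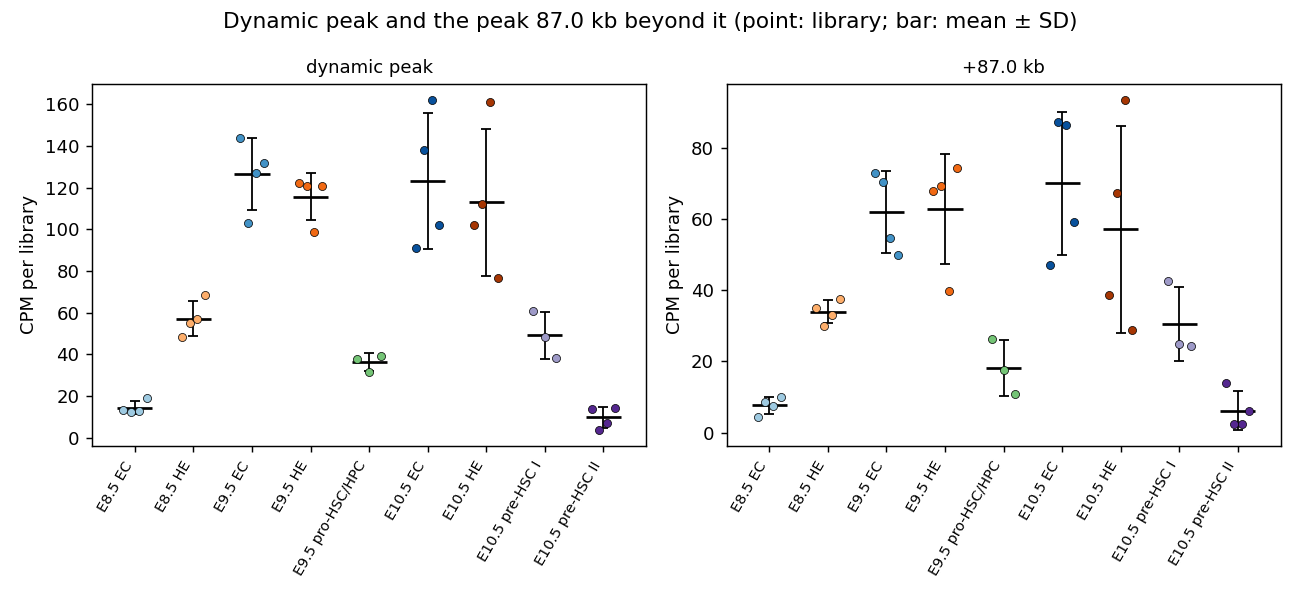
CPM in each library (points) with the mean and SD (bars) of the dynamic peak and of the peak at +87.0 kb, by population, on linear axes that differ between panels. Both are low in E8.5 EC (14.3 and 7.64 CPM), high in EC and HE at E9.5 and E10.5, and lowest in pre-HSC II (9.73 and 6.18 CPM).

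Over the 9 group means of log2 CPM the +87.0 kb peak had a Pearson r of 0.995 with the dynamic peak, rank 2 of 67107 peaks of the genome. The points share the same libraries, depths and scaling, so r is a description. Only chr13:44121484-44122417 was closer (0.996), with mean CPM of 6.06 in E8.5 EC, 22.6 in E9.5 EC and 5.38 in pre-HSC II. Next came chr4:62360159-62361143 (0.9915), chr2:85022778-85023259 (0.9911) and chr8:74818706-74820197 (0.9907). An r of at least 0.99 was reached by 6 peaks, and one of at least 0.9 by 1220 (1.82%).

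Within the window the next closest was the weak peak at +83.7 kb (chr10:74910613-74911133), with r of 0.937 and rank 391. Its libraries held 6.12, 9.12, 6.91 and 6.44 CPM in E10.5 EC and 0.0, 0.0, 0.0 and 0.742 CPM in pre-HSC II. In pre-HSC II that is 1 count over 4 libraries, against 105 in E10.5 EC and 39 in E10.5 HE. The peak passed the count filter only through endothelial samples, so that it was lower in blood had to follow. No interval or p is given for it, and reads amplified by PCR are not independent molecules. At the other end, r was −0.75 at −62.3 kb and −0.684 at +65.2 kb.

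A second pattern, with HE called below EC, was seen at peaks close to +87.0 kb and just before the gene. HE means were also below those of EC at E9.5 and E10.5 at −19.8, −10.3 and +32.8 kb, with no call. The peak at +82.1 kb (chr10:74908434-74910112) held 56.3, 50.5, 110 and 81.5 CPM in E8.5 EC (74.6 ± 27.3) and 104, 103, 111 and 137 CPM in E8.5 HE (114 ± 15.9). At E9.5 it held 185, 169, 199 and 173 CPM in EC (181 ± 13.5) and 101, 87.3, 72.4 and 88.5 CPM in HE (87.2 ± 11.6). The E9.5 groups were fully apart, with EC higher, whereas the E8.5 groups overlapped.

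At E10.5 the +82.1 kb peak held 62.7, 141, 189 and 96.0 CPM in EC (122 ± 55.0) and 8.06, 50.4, 84.5 and 19.3 CPM in HE (40.6 ± 34.3). HE was lower than EC within each replicate number, although the ranges overlapped. Pro-HSC/HPC held 27.2, 38.3 and 26.2 CPM, pre-HSC I 19.4, 45.7 and 19.0 CPM, and pre-HSC II 17.4, 10.0, 14.3 and 17.8 CPM. All blood libraries were below all EC libraries of any day at this peak.

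By edgeR, HE was below EC at +82.1 kb at E9.5 (log2 −1.05, SE 0.30, adjusted p = 0.043) and at E10.5 (log2 −1.52, SE 0.32, 0.00342, or −2.15 without HE library 3). The change of the difference between E8.5 and E9.5 was −1.64 (SE 0.43, 0.0338). Without E8.5 libraries 1 and 2 of both groups it was −1.36 (0.467), and the E9.5 difference was −1.03 (0.0601), so neither was called. DESeq2 gave −1.1 for the E9.5 difference (0.0633), also with no call. Pre-HSC II was lower than E10.5 EC (−3.03, SE 0.38, 9.97e-09) and pro-HSC/HPC lower than E9.5 EC (−2.56, SE 0.37, 8.53e-07). The E9.5 call between HE and EC was lost without any 1 of the 11 E9.5 samples, E8.5 EC library 1, E8.5 HE library 1 or 2, or pre-HSC II library 1 (log2 −1.18 to −0.98, adjusted p 0.0501 to 0.14). The change from E8.5 was lost without any 1 of 9 of the 16 libraries involved (−1.68 to −1.48, 0.051 to 0.1): E8.5 EC 1 or 2, E8.5 HE 1, 2 or 4, E9.5 EC 1 or 3, and E9.5 HE 3 or 4.

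The peak at +80.3 kb (chr10:74907030-74908100) separated EC from HE at E9.5 with 58.5, 59.5, 49.5 and 48.2 CPM (53.9 ± 5.92) against 27.5, 26.2, 24.5 and 21.1 CPM (24.8 ± 2.74). At E10.5 it held 25.4, 34.7, 36.8 and 35.1 CPM in EC and 4.83, 14.3, 26.4 and 12.1 CPM in HE. At −49.7 kb, just before the start of Adora2a (chr10:74777081-74777997), the E10.5 values were 28.7, 42.8, 36.0 and 30.2 CPM in EC (34.4 ± 6.42) and 3.22, 22.1, 19.4 and 3.22 CPM in HE (12.0 ± 10.2). Groups were apart in the first and the last of these comparisons, and at +80.3 kb in E10.5 a single HE library (26.4) reached into the EC range.

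The log2 fold changes of HE against EC were −1.12 at +80.3 kb on both days (SE 0.31 and 0.33, edgeR adjusted p = 0.0296 and 0.0478) and −1.39 at −49.7 kb at E10.5 (SE 0.39, 0.0394). At E9.5 the −49.7 kb peak differed by −1.25 (SE 0.38), with overlapping ranges and no call (0.0551). Of the 29 tested peaks other than the dynamic one, 2 were called lower in HE at E9.5, where 2.58% of all peaks were called in either direction, and 3 at E10.5, where 2.28% were. These 3 were the peaks at −49.7, +80.3 and +82.1 kb. In an edgeR fit of E10.5 EC and HE alone 0 of them were called (adjusted p = 0.177, 0.19 and 0.149), and with the replicate number as a block, which pairs these libraries, the same 3 were called (−1.56, −1.19 and −1.71 on the log2 scale).

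Without E10.5 HE libraries 1 and 4 the E10.5 differences were −0.74, −0.71 and −0.87 at −49.7, +80.3 and +82.1 kb (adjusted p = 0.582, 0.513 and 0.215, edgeR), and 0 were called. This fit kept the EC libraries of the same numbers and so broke the pairs. At +82.1 kb EC libraries 1 and 4 held 62.7 and 96.0 CPM. Libraries 2 and 3 held 141 and 189 CPM in EC and 50.4 and 84.5 in HE. The 2 HE libraries left out averaged 13.7 CPM at +82.1 kb, against 67.5 in HE libraries 2 and 3, and 89.1 against 137 CPM at the dynamic peak. Their part in the result was otherwise not tested. The call at −49.7 kb was lost without any 1 of E8.5 HE library 2, E10.5 EC library 2 or 3, or E10.5 HE library 1 or 4 (adjusted p 0.0512 to 0.175), and that at +80.3 kb was lost in 16 of 34 such fits (0.0504 to 0.217). These left out E8.5 EC 1 or 2, E8.5 HE 1 or 2, E9.5 EC 3, E9.5 HE 3, any pro-HSC/HPC, E10.5 EC 2, 3 or 4, E10.5 HE 1, 2 or 4, or pre-HSC II 1. At E9.5 the +80.3 kb call was lost without EC library 1 or 2 or any HE library (−1.22 to −1.09, 0.0518 to 0.0989).

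Between the gene and the dynamic peak lay 2 further peaks. The nearer, at −10.3 kb (chr10:74816206-74817631), held 47.6, 57.5, 82.5 and 77.6 CPM in E8.5 EC (66.3 ± 16.5) and 115, 115, 119 and 142 CPM in E8.5 HE (123 ± 13.2). E9.5 EC held 118, 107, 120 and 117 CPM (116 ± 5.67) and E9.5 HE 103, 106, 76.4 and 95.5 CPM (95.2 ± 13.3). E8.5 HE was above E8.5 EC in every library, but its log2 difference of 0.87 had an adjusted p of 0.0733.

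At E10.5 the −10.3 kb peak held 36.7, 77.4, 88.7 and 49.2 CPM in EC (63.0 ± 24.1) and 32.2, 60.3, 87.9 and 25.8 CPM in HE (51.5 ± 28.5), and no difference from E9.5 was called. Pro-HSC/HPC held 32.9, 36.9 and 13.9 CPM (27.9 ± 12.3), pre-HSC I 22.0, 30.5 and 17.9 CPM (23.4 ± 6.44), and pre-HSC II 10.4, 10.0, 9.56 and 8.91 CPM (9.72 ± 0.646). Here the E8.5 EC level was above that of all blood populations, unlike at the dynamic peak, where it was below pro-HSC/HPC and pre-HSC I.

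By edgeR the −10.3 kb peak was lower in pro-HSC/HPC than in E9.5 HE (log2 −1.73, SE 0.30, adjusted p = 0.000765). It was also lower in pre-HSC II than in E10.5 EC (−2.72, SE 0.35, 1.36e-08) and E10.5 HE (−2.46, SE 0.35, 6.18e-07). Its rise from E8.5 EC to E9.5 EC (0.79, 0.0399) was lost without E8.5 EC library 1 or 2 or E9.5 EC library 1, 3 or 4 (0.69 to 0.83, 0.055 to 0.126). Its fall from pre-HSC I to pre-HSC II (−1.29, 0.0371) was lost without E9.5 EC library 1, pre-HSC I sample 1 or 2, or pre-HSC II library 2, 3 or 4 (−1.35 to −1.05, 0.0503 to 0.15). This fall also missed the threshold with RLE size factors (−1.01, 0.105), total counts (−1.02, 0.0862), DESeq2 (−1.01, 0.0868), thinned libraries (−1.22, 0.096), and fits of only the groups compared without (−1.09, 0.222) and with the replicate block (−1.06, 0.283).

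The other, at −19.8 kb (chr10:74807131-74807722), held 20.8, 20.2, 12.4 and 23.9 CPM in E9.5 EC, 7.44 to 10.8 CPM in E9.5 HE (9.12 ± 1.77, n = 4) and 3.27, 4.62 and 3.85 CPM in pro-HSC/HPC. These 3 groups did not overlap, and pro-HSC/HPC was below EC (log2 −2.33, SE 0.49, adjusted p = 0.000538, edgeR). HE against EC differed there by −1.11 at E9.5 and −1.13 at E10.5 on the log2 scale. These differences were not called (edgeR adjusted p = 0.128 and 0.184). On the far side, the peak at +32.8 kb (chr10:74859285-74860685) held 43.8, 44.0, 51.5 and 46.0 CPM in E10.5 EC and 3.47, 40.1, 4.78 and 11.9 CPM in pre-HSC II, where library 2 stood apart. Pre-HSC II was below EC there (log2 −1.60, SE 0.36, adjusted p = 0.000534, edgeR), and by −2.60 (1.42e-06) without that library.

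**Figure D3:**
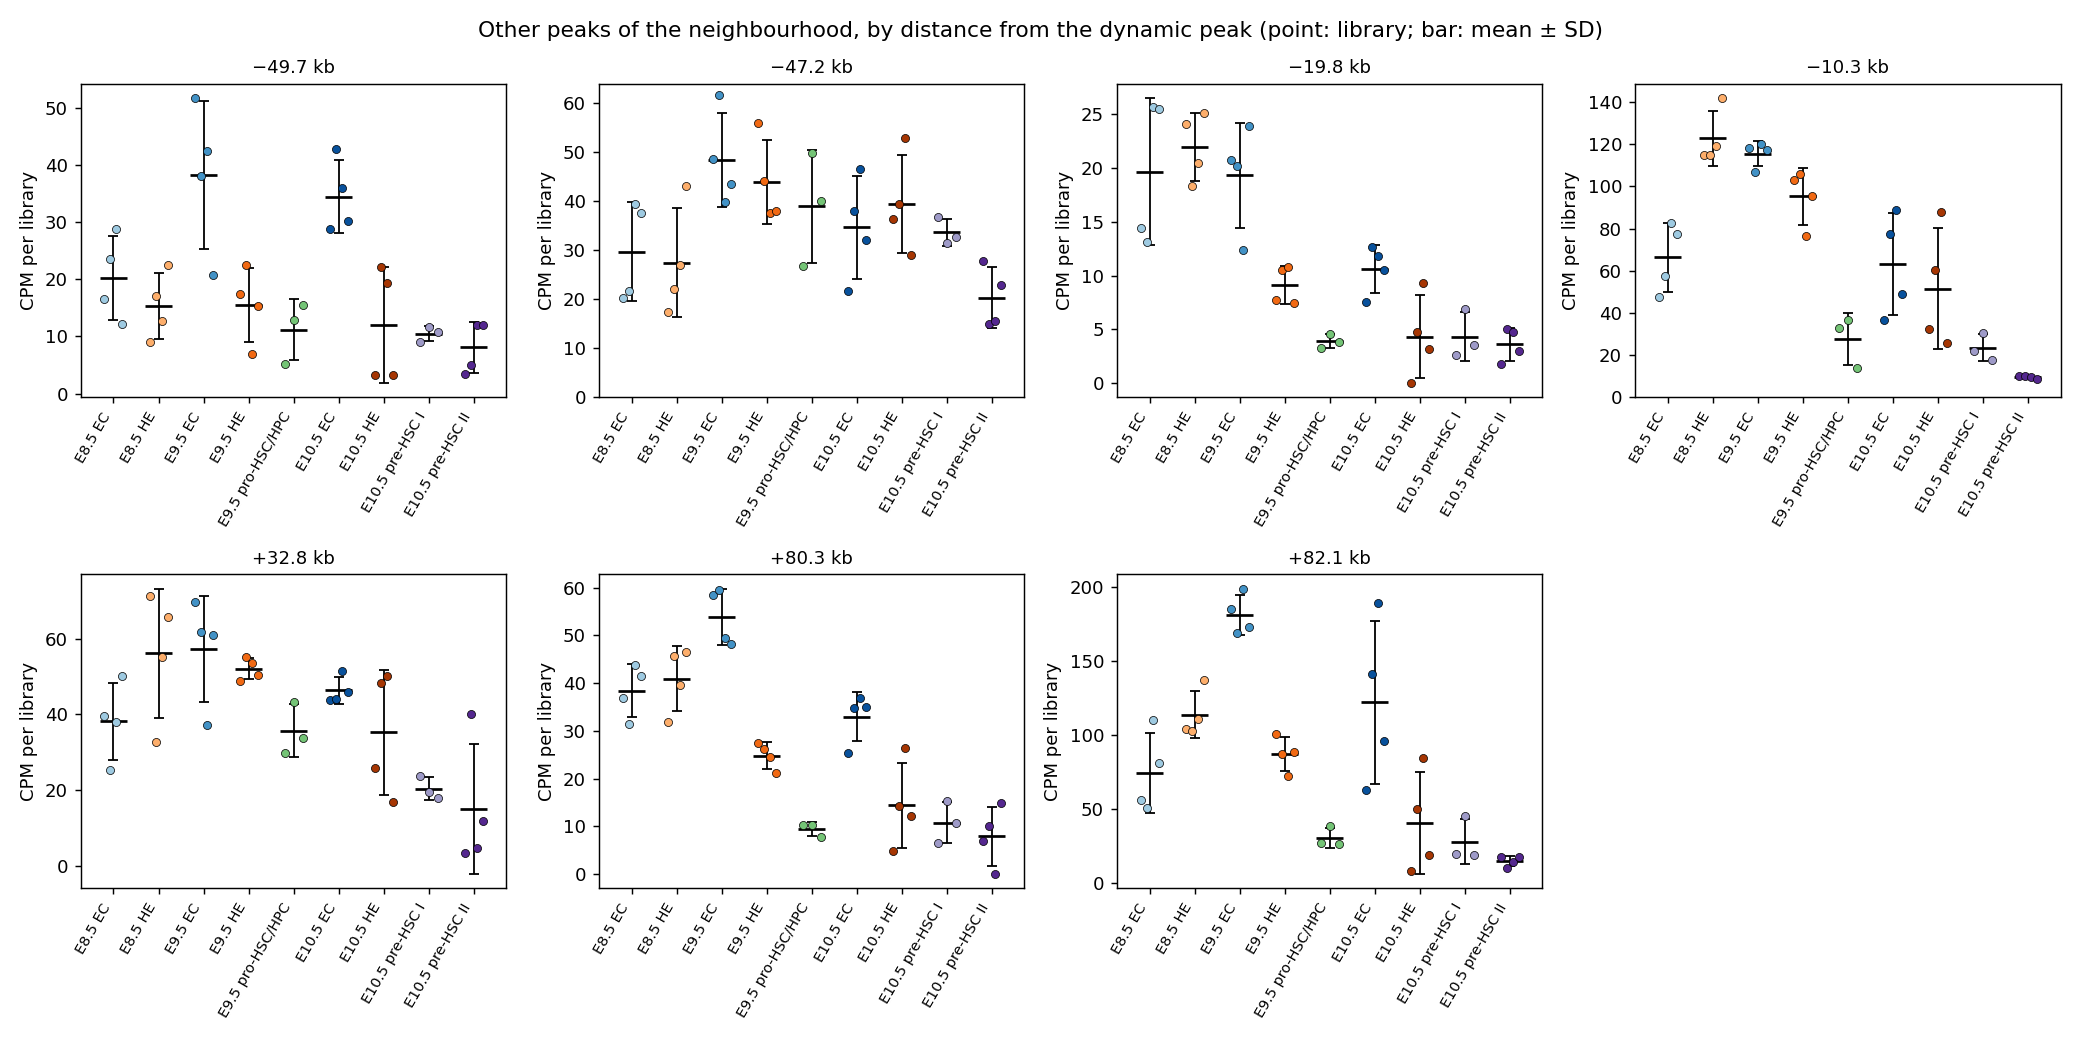
CPM in each library (points) with the mean and SD (bars) of 7 other peaks, by population, with panels named by distance from the dynamic peak and vertical axes that differ. HE has lower means than EC at E9.5 and E10.5 at +80.3 and +82.1 kb (called on both days) and at −49.7 kb (called at E10.5 only). It also has lower means, with no call, at −19.8, −10.3 and +32.8 kb. The peak at −47.2 kb, at the start of Adora2a, has group means between 20.3 and 48.4 CPM.

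The start of Adora2a itself varied less than the dynamic peak. Its peak, at −47.2 kb (chr10:74779007-74780971), held 20.2, 21.8, 39.4 and 37.6 CPM in E8.5 EC (29.7 ± 10.1) and 48.6, 61.6, 39.8 and 43.6 CPM in E9.5 EC (48.4 ± 9.52). It held 36.3, 39.5, 52.8 and 29.0 CPM in E10.5 HE (39.4 ± 9.95) and 27.8, 15.0, 15.5 and 23.0 CPM in pre-HSC II (20.3 ± 6.15). Means of the remaining groups lay between 27.5 and 43.9 CPM, and most ranges overlapped. E8.5 EC and E9.5 EC did not overlap (log2 0.68, edgeR adjusted p = 0.101), nor did pre-HSC II with pre-HSC I (−0.74, 0.202) or with E10.5 HE. The 9 group means at the gene's start spanned 1.25 on the log2 scale, against 3.76 at the dynamic peak, with r of 0.797 between the 2 peaks.

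Of 14 comparisons only that of pre-HSC II with E10.5 HE was called at the gene's start (log2 −0.98, SE 0.32, adjusted p = 0.0218, edgeR). That call was lost without E10.5 HE library 3 or pre-HSC II library 2 or 3 (−0.87 to −0.81, 0.0705 to 0.109) and in 6 of 11 alternatives. These were RLE size factors (−0.74, 0.0755), DESeq2 (−0.75, 0.0615), total counts (−0.67, 0.114), only the groups compared without (−0.72, 0.2) and with the replicate block (−0.73, 0.224), and thinned libraries (−0.28, 0.642). Inside the gene, 5 weak peaks had group means of at most 10.4 CPM. Among them, the peak at −44.0 kb was higher in pre-HSC II than in E10.5 EC (3.47, 5.01, 10.8 and 5.94 against 0.471, 1.19, 1.15 and 1.76 CPM), and that at −30.2 kb was lower (log2 −2.04, SE 0.66, edgeR adjusted p = 0.0167).

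Just 3 of the 29 peaks were called in the higher direction alone: −44.0 kb, −62.3 kb and +65.2 kb. Passing the count filter took 3 samples at 4.56 CPM or more. At −62.3 and +65.2 kb 0 of the EC and HE samples reached this level, and at −44.0 kb 2 did. These peaks could therefore enter the test only with blood samples in which they are high, so their calls against endothelium had to follow and are given as values without p.

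The peak at −62.3 kb, before the gene (chr10:74764605-74765194), held 7.62, 8.31 and 3.85 CPM in pro-HSC/HPC, 1.29, 8.63 and 2.98 CPM in pre-HSC I and 3.47, 31.3, 15.5 and 9.65 CPM in pre-HSC II (15.0 ± 11.9). No EC or HE library exceeded 2.61 CPM. The blood populations overlapped one another, with pre-HSC II the most spread.

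At +65.2 kb (chr10:74892249-74892564) the libraries held 6.94, 12.5, 9.56 and 14.8 CPM in pre-HSC II (11.0 ± 3.45) and 0.0, 1.02 and 0.0 CPM in pre-HSC I. That is 42 counts against 2. Only pre-HSC II libraries reached the filter level at this peak, so its difference from pre-HSC I had to follow as well and is given without interval or p. Group means were 2.25 CPM in pro-HSC/HPC and at most 0.806 CPM in EC and HE, and all 4 pre-HSC II libraries were above every other E10.5 library.

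**Figure D4:**
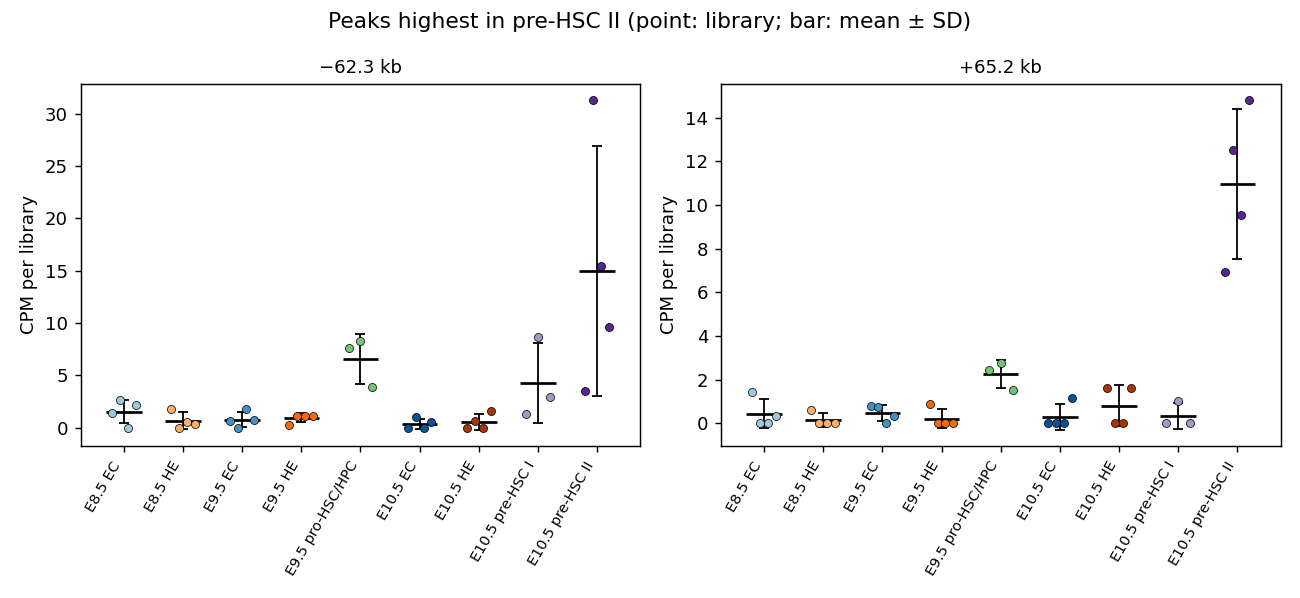
CPM in each library (points) with the mean and SD (bars) of the peaks at −62.3 and +65.2 kb, by population. Pre-HSC II has the highest means (15.0 and 11.0 CPM), the −62.3 kb peak is also above the endothelial groups in pro-HSC/HPC (6.59 CPM), and its pre-HSC II libraries spread from 3.47 to 31.3 CPM.

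Over the whole window, 16 of the 29 peaks tested beside the dynamic peak were called in at least 1 of 14 comparisons, as were 38.3% of all tested peaks, and 13 were called in none. This count and those below include calls that had to follow from the count filter. They are the higher calls in blood at −62.3, −44.0 and +65.2 kb and the lower ones at −69.3 and +83.7 kb. The shares over all peaks come from the same filter. Calls were most frequent in pre-HSC II against E10.5 endothelium. In pre-HSC II against E10.5 EC 15 of 29 were called, 12 lower and 3 higher, where 25.3% of all peaks were called, and the median log2 fold change was −0.79 against −0.14 over all peaks. Against E10.5 HE 10 were called, 8 lower and 2 higher (17.9% of all peaks), with medians of −0.73 and −0.16. Scaling by RLE, total counts or DESeq2 raised the all-peak median in these comparisons by 0.21 to 0.35, so the differences are relative to the TMM scaling used.

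Pre-HSC I against E10.5 EC gave 8 calls, 7 of them lower (5.91% of all peaks), with a median of −0.80 against 0.05. Pro-HSC/HPC against E9.5 EC gave 7, of which 6 lower (11.8%), with a median of −0.65 against 0.13. For pro-HSC/HPC against E9.5 HE the count was 4, all lower (1.74%), and for pre-HSC II against pre-HSC I it was 3, of which 2 lower (5.15%). The 4 were the peaks at −10.3, +80.3, +82.1 and +87.0 kb. Those at −10.3 and +87.0 kb were called lower again in pre-HSC II than in pre-HSC I. The former was called under the TMM scaling but not under RLE, total counts or DESeq2. Neither was called with thinned libraries. In the step to pro-HSC/HPC, the call at +82.1 kb was lost without pro-HSC/HPC library 1 or 3 (log2 −1.49 to −1.43). That at +80.3 kb was lost without any 1 of pro-HSC/HPC or of E9.5 HE libraries 1 to 3 (log2 −1.48 to −1.34). Thinning ended the calls of this step at +80.3 and +87.0 kb.

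E9.5 EC against E8.5 EC gave 3 calls, all higher, at −10.3, +82.1 and +87.0 kb, a share (10.3%) close to the 11.1% of all peaks. Without E8.5 libraries 1 and 2 of EC and HE, those at −10.3 kb (log2 0.5, edgeR adjusted p = 0.482) and +82.1 kb (0.89, 0.243) were lost. E8.5 HE against EC gave 1 call, the +87.0 kb peak (1.44% of all peaks), and the test of that difference between E8.5 and E9.5 gave 2 (1.5%). In 5 comparisons edgeR called 0 of the 29. For pre-HSC I against E10.5 HE (0.079% of all peaks) 7 had an unadjusted p under 0.05 and DESeq2 called 1. The counts were 4 and 2 for E10.5 EC against E9.5 EC (0.316%), 5 and 2 for E9.5 HE against E8.5 HE (2.14%), 6 and 1 for E10.5 HE against E9.5 HE (0.557%), and 0 and 0 for the change of HE against EC from E9.5 to E10.5 (0% of all peaks).

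**Figure D5:**
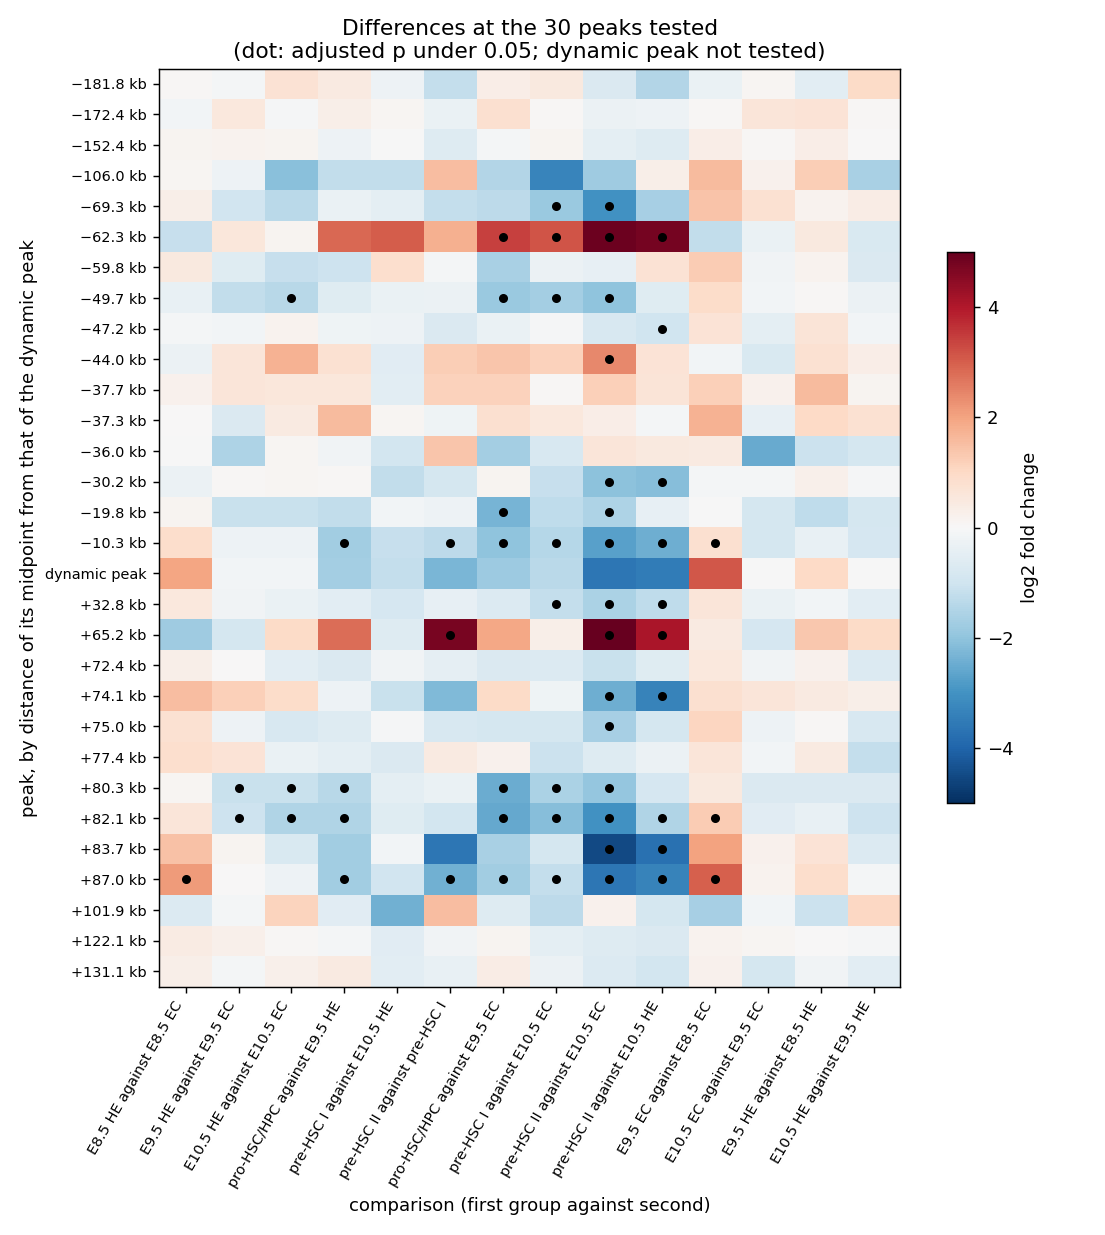
Log2 fold change (colour, first group against second) of the 30 tested peaks (rows, by distance from the dynamic peak) in 14 comparisons (columns). Dots mark an adjusted p under 0.05 in edgeR, which fall mostly in the columns of pre-HSC II against E10.5 EC (15) and against E10.5 HE (10) and are not drawn for the dynamic peak. Dots at −69.3, −62.3, −44.0, +65.2 and +83.7 kb had to follow from the count filter.

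Other called peaks were weak and were called in comparisons of E10.5 blood with E10.5 endothelium alone. They lay at −69.3, −30.2, +74.1, +75.0 and +83.7 kb, and all were lower in pre-HSC II than in E10.5 EC, with log2 fold changes from −3.02 to −1.67 at the first 4. Those at −69.3 and +83.7 kb passed the count filter only through endothelial samples, so that they were lower in blood had to follow. The peak at +74.1 kb, for example, held 24.2, 20.1, 15.0 and 9.67 CPM in E10.5 HE and 0.0, 2.50, 2.39 and 1.48 CPM in pre-HSC II, fully apart (log2 −3.33, SE 0.64, edgeR adjusted p = 0.000131). The 13 peaks that were never called include the strong one at −152.4 kb (chr10:74674262-74675439). It held 46.2 to 75.7 CPM in E8.5 EC, 49.0 to 100.0 in E10.5 EC, 66.1 to 91.7 in pre-HSC I and 35.1 to 60.9 in pre-HSC II, and its group means spanned 0.66 on the log2 scale.

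At the edges of the window, the first peak inside at the low end (chr10:74644962-74645924) had group means of 3.86 to 11.4 CPM and the nearest outside it (chr10:74638958-74640030) 8.99 to 37.8 CPM. At the high end the values were 3.00 to 11.9 CPM inside (chr10:74958077-74958550) and 1.39 to 7.57 CPM outside (chr10:74961927-74962413).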

How the data were processed

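The values are raw counts per peak as the authors deposited them, in a single table of 76018 mm9 peaks by 35 ATAC-seq libraries. The submitters' processing notes name MACS2 2.0.1, DiffBind 1.14.6, Bowtie 1.0.0, Trim Galore 0.3.1, bedtools 2.17.0, SAMtools and deepTools. Their settings, and any shift of reads for the transposase, are not given in the sources used here. Per library, 54.1% to 78.2% of counts from 10 to 49 were even, so reads may come in pairs and a count may stand for fewer independent molecules.

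Groups came from the titles. Libraries were scaled with TMM, peaks were filtered with filterByExpr by group (67108 left) and edgeR 4.0.16 ran the two-sided quasi-likelihood test in a joint fit of 34 samples with 25 residual degrees of freedom. A call is a Benjamini-Hochberg adjusted p under 0.05. The SE is the log2 fold change divided by the square root of F. CPM uses TMM-scaled totals, and log2 CPM a prior count of 2. The test was checked on simulated data.

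Values in every library are given for the dynamic peak, the peak at the Adora2a start, the 2 nearest peaks on each side, and up to 5 others called in most comparisons. Likeness takes the 5 peaks with the highest r. Peaks at −152.4, −69.3, −44.0, −30.2, +74.1, +75.0 and +83.7 kb were added after their values were seen. The region, its members and these rules were chosen with earlier results of these data known. Replicate numbers paired libraries for E10.5 HE and EC alone (r of deviations 0.125 to 0.33 in 4 pairs). Genes of adenosine handling were not analysed here. Other software was R 4.3.3, DESeq2 1.42.0, limma 3.58.1, Python 3.11.15, numpy 2.4.6, pandas 2.3.3 and matplotlib 3.10.9.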

Additional observations from a re-analysis of the deposited data

Results flagged for a closer look

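In 77 groups of 4 libraries at the 11 peaks named by rule, 7 had a library far from the other 3, and chance gives about 1 in 20. At the dynamic peak, as a description of the spread within groups, these were E8.5 EC library 4, with 19.1 CPM against 12.2 to 13.0, and E9.5 HE library 3, with 98.7 CPM against 121 to 122. At −10.3 kb E8.5 HE library 4 had 142 CPM against 115 to 119. At −62.3 kb E9.5 HE library 1 had 0.287 CPM against 1.13 to 1.17. At +65.2 kb a single library had counts in each of 3 groups, E8.5 HE library 1 (0.603 CPM), E9.5 HE library 1 (0.863 CPM) and E10.5 EC library 4 (1.17 CPM), where the others were at 0. With 3 libraries at 0, any count in the other one has this effect.

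The HE against EC difference changed from E8.5 to E9.5 at 2 peaks, by the interaction contrast in edgeR. It changed by −2.10 on the log2 scale (SE 0.44, adjusted p = 0.00663) at +87.0 kb, where HE was above EC at E8.5 and at the same level at E9.5. At +82.1 kb it changed by −1.64 (SE 0.43, adjusted p = 0.0338), with HE below EC at E9.5. Without E8.5 libraries 1 and 2 of both groups, neither change was called (−1.93, 0.22, at +87.0 kb and −1.36, 0.467, at +82.1 kb). With thinned libraries that at +87.0 kb was not called either (−1.87, 0.0761).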

How the results depend on the processing

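The 48 calls at named peaks were recomputed under 11 alternatives and with each library left out, which gave 2146 values. Another 14 values were missing, for 7 calls at −62.3 and +65.2 kb, where the peak was not tested or had no adjusted p. None of the 2146 reversed its direction and 162 lost the call. Of the 48 calls 15 were kept with every value given, and 3 more, at −62.3 and +65.2 kb, wherever a value was given. All 7 calls at those peaks had to follow from the count filter, so that they were kept is no support. Thinning all libraries to the shallowest kept 25 and lost 16, and the other 7 had no value. Counts of called peaks, with the dynamic peak left out and calls that had to follow from the filter kept in, moved as follows. HE against EC over the 3 days gave 6 calls. It gave 12 in fits of only the groups compared with a replicate block, 2 without E8.5 libraries 1 and 2, and 3 to 9 with 1 library left out (3 without E8.5 HE library 2 or E9.5 HE library 3). The blood steps gave 7, or 13 without E10.5 HE libraries 1 and 4, 2 when thinned, and 4 to 8 with 1 library left out (4 without pro-HSC/HPC library 1). Blood populations against EC or HE gave 40, or 16 when thinned, and 35 to 44 with 1 library left out. Day against day gave 3. It gave 5 with RLE size factors, 5 with total counts, 15 with only the groups compared, 12 with a replicate block added to that, 9 with DESeq2, 10 without E10.5 HE libraries 1 and 4, 1 without E8.5 libraries 1 and 2, and 2 to 6 with 1 library left out (6 without E10.5 HE library 1 or 3, 5 without pre-HSC II library 1). The change of HE against EC between days gave 2. It gave 4 with only the groups compared, with or without a replicate block, 4 with DESeq2, 0 without E8.5 libraries 1 and 2, and 1 to 3 with 1 library left out. The cause of these moves was not tested. A replicate block over all groups gave 8, 7, 38, 4 and 2 calls in the same order. It ended 1 call at a named peak, pre-HSC I against E10.5 EC at −62.3 kb (log2 3.04). Thinning, the fits without doubted libraries and the block in fits of only the groups compared were chosen after seeing the data. Without E10.5 HE libraries 1 and 4, or thinned, the calls of the remaining libraries rest on fewer samples or reads. The fit without these HE libraries kept E10.5 EC libraries 1 and 4, with which they pair.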
